A study of Homo sapiens with 20 samples.

Results

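The replication-dependent core histone genes are the clustered genes for histones H2A, H2B, H3 and H4. They were chosen as a fixed list of 56 Ensembl gene IDs, and all 56 were among the 19029 gene IDs present in every deposited count table. The rule goes by the genes' identity, but the set was chosen with earlier results of these data known.

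Core histones form the protein spool on which DNA is wound, and their replication-dependent genes are transcribed mainly in S phase. Most of the mRNAs have no introns and end in a conserved stem-loop in place of a poly(A) tail. The stem-loop is bound by SLBP, which takes the part of the poly(A)-binding protein in bringing these short mRNAs to the ribosome, and the mRNAs have short leaders.

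The libraries came from HEK 293T, a transformed human embryonic kidney cell line, labelled wild type in all groups, whose cells received DMSO (the solvent) or i14G1-12 at 5 µM for 1 h. The title of the series names an inhibitor of the pair eIF1 and eIF4G1, which are initiation factors that act on the small ribosomal subunit. After formaldehyde crosslinking and RNase digestion, initiation complexes were fractionated and immunoprecipitated (through HA for eIF1 and for eIF2a, or through eIF4G1 or eIF3), so each library holds RNA that small-subunit complexes with 1 factor protected. For eIF1 and for eIF4G1 there were 3 libraries with DMSO and 3 with i14G1-12, and for eIF2a and for eIF3 there were 2 and 2. How the tagged proteins were expressed was not found in the labels. Antibody, tag, batch and any difference between the cells go with the factor and cannot be told apart from it. Without input libraries, which were not analysed here, each value is relative to the other RNA in the same immunoprecipitate, and more mRNA in the cell cannot be told apart from more complexes per mRNA. Whether replicates were separate cultures is not labelled; the p-values below rest on the spread between libraries, and that spread may be technical.

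The libraries held 10033 to 1161512 gene counts. The smallest, the eIF2a library DMSO 2, had 7 of the 56 histone genes at 0 counts, and eIF3 DMSO 2 had only 59179 counts in all. The eIF4G1 library i14G1-12 3 stood apart in its numbers: 99.95% of its nonzero counts, including those of 56 of 56 histone genes, were whole multiples of 3, against 12.0% to 35.6% in the other 19 libraries. A gene with the ID ENSG00000173812 held 5.45% to 16.7% of the counts in the eIF1 libraries and no more than 0.455% elsewhere. The files do not pair IDs with names, so neither the cell line's markers nor the tagged factors nor other genes of histone mRNA metabolism could be looked up.

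Names for single histone genes were sought through the length of the sequence on which reads were counted. RefSeq (GRCh38.p14) lists 63 core histone genes under the symbols H2AC, H2BC, H3C and H4C, and 33 of the 56 IDs have a length that matches exactly 1 of them and no other ID of the list. Such a symbol is a length match and a candidate, not a pairing by ID, and is written here as "H4C4-length". By length, 10 genes fell to H2A, 10 to H2B, 6 to H3 and 13 to H4, and 17 were not assigned. The 13 H4-length genes measured 387 to 412 nt, and all 14 RefSeq core histone genes of 412 nt or less encode H4. The other 43 measured 451 to 542 nt, except the H2BC21-length gene ENSG00000184678 at 2224 nt. Of the 33 length-matched symbols, 27 lie in RefSeq on chromosome 6 and 6 on chromosome 1.

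Histone genes were among the most abundant in these complexes. Over the 8 group means their level ran from 17.2 to 4774 counts per 1000000 gene counts (CPM), with a median of 1152 CPM, against 18.4 CPM for all genes with a count. Of the 56, 29 ranked among the 100 most abundant genes and 5 among the first 10. The 10 most abundant held 45.9% of the histone level and the 20 least abundant 5.09%. Most were measured in every library: 48 had no 0 count in any of the 20.

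Among the H2A-length genes, which encode the partner of H2B in the outer dimers of the nucleosome, ENSG00000288859 (H2AC19-length) and ENSG00000288825 (H2AC18-length) were the most abundant of the whole set, with mean levels of 4774 and 4684 CPM. Among the H3-length genes, which encode the histone that pairs with H4 in the central tetramer, ENSG00000203811 (H3C14-length), ENSG00000203852 (H3C15-length) and ENSG00000286522 (H3C2-length) led with 4262, 4242 and 3767 CPM. ENSG00000270276 and ENSG00000270882 led the H4-length genes, both with 3455 CPM. The H2B-length genes were led by ENSG00000184678 with 2826 CPM and ENSG00000124635 (H2BC11-length) with 2745 CPM. ENSG00000197903 and ENSG00000203814, not assigned to a class, stood at 3044 and 2812 CPM. The order changes per length, since the counted lengths differ. In CPM per kilobase of counted sequence, the median H4-length gene stood at 4048 and the median longer gene at 1586. ENSG00000184678 dropped to 1271. The genes at these medians had 1656 and 806 CPM, so the H4-length gene was also higher before division by length. Whether reads spread evenly along the counted sequence was not checked.

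**Figure D1:**
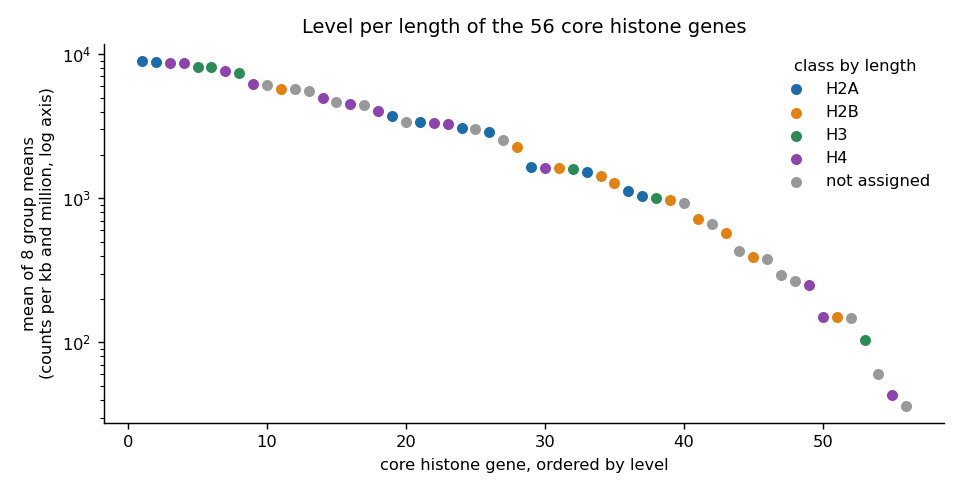
Level of each of the 56 core histone genes in CPM per kilobase of counted sequence (log axis), as the mean of the 8 group means, ordered from highest to lowest and coloured by the class that the counted length gives. H4-length genes stand among the highest and the lowest, and 8940 (ENSG00000288859) is the top value.

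The copies cannot all be told apart by reads. In 18 libraries where both had at least 200 counts, ENSG00000288825 and ENSG00000288859 differed by at most 8.83%, ENSG00000203811 and ENSG00000203852 by at most 11.9%, and ENSG00000270882 and ENSG00000270276 by at most 9.82%. These pairs held 12.3%, 10.5% and 8.27% of all histone counts. The sources used here do not state how reads that fit several genes were counted, so values of single copies are uncertain, and the sum over the set is less open to this.

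In eIF1 complexes the set as a whole held more of the counts after i14G1-12. It took 9.73%, 8.34% and 8.96% in the DMSO libraries a, b and c (mean 9.01% ± 0.70, SD, n = 3). It took 13.2%, 12.7% and 12.0% in the i14G1-12 libraries (mean 12.7% ± 0.59, SD, n = 3), a ratio of 1.41. All treated libraries lay above all DMSO libraries. ENSG00000173812 moved the denominator within both groups, and with it left out the shares were 11.3%, 8.82% and 9.66% with DMSO and 15.9%, 13.6% and 13.0% with i14G1-12. In log2 terms the change was 0.49 as a plain share and 0.65 when each library was scaled by TMM, edgeR's normalization on the genes that change least.

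In eIF4G1 complexes the set took 7.93%, 6.94% and 7.22% with DMSO (mean 7.36% ± 0.51, SD, n = 3). With i14G1-12 it took 11.9%, 11.0% and 8.20% (mean 10.4% ± 1.95, SD, n = 3), again a ratio of 1.41. The groups did not overlap, and the lowest treated value was that of library 3, whose counts are multiples of 3. Without that library the log2 ratio of the shares went from 0.50 to 0.64.

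In eIF2a and eIF3 complexes the groups overlapped. With eIF2a the set took 6.07% and 7.05% with DMSO and 7.04% and 6.03% with i14G1-12, so the ratio of the means was 0.997. The DMSO share of 7.05% rests on 10033 counts, with an exact 95% binomial interval of 6.55% to 7.57%, which covers counting error only. With eIF3 it took 7.25% and 4.60% with DMSO and 9.83% and 4.37% with i14G1-12, a ratio of 1.20. The libraries numbered 2 were low in both eIF3 groups: between libraries of the same number the ratio was 1.36 for number 1 and 0.95 for number 2. Without eIF3 i14G1-12 1 the log2 ratio of the shares turned from 0.26 to -0.44.

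**Figure D2:**
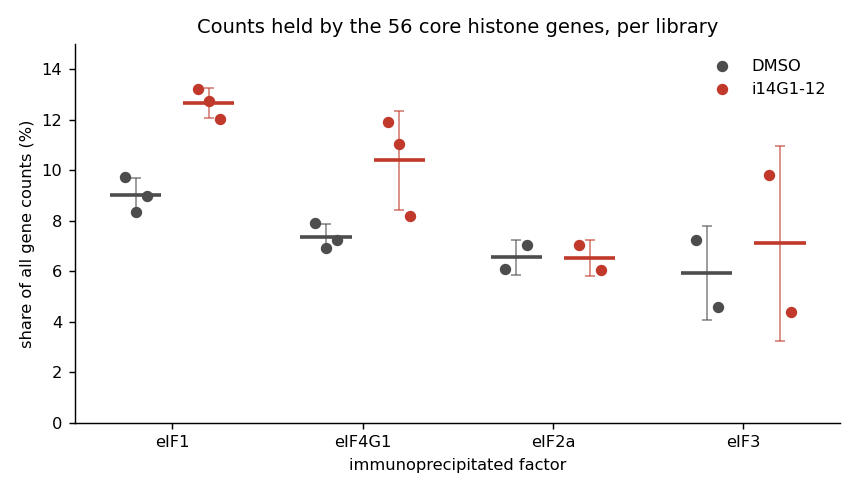
Share of all gene counts (%) held by the 56 core histone genes in each of the 20 libraries (points), with the group mean (bar) and SD (whisker), by immunoprecipitated factor and treatment. With i14G1-12 the 3 eIF1 libraries sit at 12.0% to 13.2%, above DMSO at 8.34% to 9.73%, and the 3 eIF4G1 libraries at 8.20% to 11.9% against 6.94% to 7.93%; the eIF2a and eIF3 groups overlap.

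Gene by gene in eIF1, all 56 histone genes were tested and all 56 had a positive log2 fold change, as did 50.4% of the 8338 genes tested, with a median of 0.67 against 0.00 over all genes. With edgeR's quasi-likelihood test at an adjusted p under 0.05 over all genes, 2 histone genes rose and 0 fell, where 0.456% of all genes were called. At an unadjusted p under 0.05, 44 of the 56 passed, all higher, which is 78.6% against 12.4% of all genes. Every treated library lay above every DMSO library for 44 of the 56, against 5.92% of the 8511 genes with at least 60 counts. The count of calls depended on single libraries: it was 0 without DMSO b, DMSO c or i14G1-12 c, and 4 without DMSO a or i14G1-12 a. Of the 2 genes called with all libraries, 0 were kept without DMSO a and 1 without i14G1-12 a. The share of all genes called in these fits is not given here. DESeq2's test, whose own filter left 2783 genes with an adjusted p, called 37 of the 53 histone genes among these, where it called 6.25% of all genes.

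One of the called genes was ENSG00000275221, of 496 nt and not assigned to a class, at 309, 321 and 316 CPM with DMSO. With i14G1-12 it stood at 480.5, 623 and 536 CPM, well clear of the DMSO libraries. Its log2 fold change was 0.93 (SE 0.20, adjusted p = 0.0346 by edgeR), and over the alternatives the adjusted p ran from 9.5e-05 to 0.501. The other was ENSG00000276410, of 487 nt and also not assigned, at 164, 254 and 156 CPM with DMSO and 665, 239.8 and 361 CPM with i14G1-12. Here the groups overlapped and library a stood far above the others. Its log2 fold change was 1.38 (SE 0.32, adjusted p = 0.0499 by edgeR, from 2.65e-05 to 0.359 over the alternatives), and it was 0.66 without library a.

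The most abundant genes lay lower in the order of changes than these. ENSG00000288859 (H2AC19-length) went from 7015, 4516 and 5729 CPM to 9984, 10159.5 and 8776 CPM, with no overlap, which is 0.89 on the log2 scale (SE 0.27, edgeR adjusted p = 0.124). ENSG00000286522 (H3C2-length) went from 4891, 4210.3 and 4743 CPM to 5778, 5620.1 and 5772 CPM, also without overlap (log2 0.46, SE 0.24, edgeR adjusted p = 0.440). ENSG00000184678, the long H2BC21-length gene, went from 2619.9, 2471 and 2371 CPM to 4713, 4156 and 3439 CPM (log2 0.90, SE 0.25, edgeR adjusted p = 0.0905). ENSG00000197061 (H4C3-length) moved least among these, from 5646, 3688 and 4886 CPM to 5418, 5032 and 5479.8 CPM, and its groups overlapped (log2 0.31, SE 0.25, edgeR adjusted p = 0.659).

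By class, the median log2 fold change in eIF1 was 0.67 for the 10 H2A-length genes, 0.70 for the 10 H2B-length, 0.58 for the 6 H3-length and 0.67 for the 13 H4-length genes. Summed over the genes assigned to each class, which lessens the question of how copies share reads but leaves out the 17 unassigned genes, the H2A-length genes had a log2 fold change of 0.80 (SE 0.29), H2B-length 0.72 (SE 0.27), H3-length 0.58 (SE 0.27) and H4-length 0.52 (SE 0.28). Differences between the classes were not tested. The H4-length genes took 28.3%, 28.2% and 28.8% of the histone counts with DMSO and 24.9%, 26.2% and 26.6% with i14G1-12, with no overlap. In eIF2a their mean part went the other way, from 24.4% to 26.5%, also with no overlap, but with only 2 libraries per group. There DMSO 1 stood at 25.3% and DMSO 2 at 23.6%, the latter on only 707 histone counts, so this difference is uncertain. In eIF4G1 (26.8% and 25.3%) and eIF3 (25.8% and 25.4%) the groups overlapped. In eIF1 the H2A-length genes took 24.8%, 21.7% and 23.2% and then 25.5%, 26.2% and 25.7%, without overlap. These parts are descriptions and were not tested.

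In eIF4G1, 54 histone genes passed the filter on low counts and all 54 of these had a positive log2 fold change, as did 49.6% of the 7203 genes tested, with a median of 0.75 against -0.01 over all genes. By edgeR 1 rose and 0 fell, where 0.347% of all genes were called. At an unadjusted p under 0.05, 35 of the 54 passed, all higher, which is 64.8% against 8.65% of all genes. The groups did not overlap, in the higher direction, for 22 of 54, against 5.07% of the 8500 genes with at least 60 counts. Without library i14G1-12 3 edgeR called 8, and without any 1 DMSO library or i14G1-12 2 it called 0. For these fits, too, the share of all genes called is not given here. DESeq2's test, with an adjusted p for 1005 genes, called 17 of the 46 histone genes among these, where it called 9.65% of all genes. With the counts of library 3 divided by 3 the number called was still 1, and the share of all genes called is not given for that fit either.

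The called gene was ENSG00000288859, the H2AC19-length gene, which stood at 3538, 2901 and 2702 CPM with DMSO. With i14G1-12 it stood at 7994, 6884 and 4589 CPM, all above DMSO. Its log2 fold change was 1.27 (SE 0.28, edgeR adjusted p = 0.0378), and over the alternatives the adjusted p ran from 4.56e-05 to 0.568. Its near-equal copy ENSG00000288825 had 1.19 (SE 0.28, edgeR adjusted p = 0.0594). ENSG00000275379 (H3C11-length), a rare member, had the highest value, 1.72 (SE 0.49, edgeR adjusted p = 0.195), from 23.9, 14.3 and 28.8 CPM to 80.9, 52.4 and 66.3 CPM, with no overlap.

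The order of the genes was alike in both immunoprecipitations, each measured against its own DMSO libraries. Over the 54 histone genes tested in both, Pearson's r between the log2 fold changes was 0.70, given as a description, since near-identical copies share reads. Over the 6925 other genes it was 0.38. The histone genes were far more abundant, with a median of 1152 CPM against 18.4 CPM for all genes with a count. Genes of like abundance were not compared. With eIF3, r was 0.63 for eIF1 and 0.75 for eIF4G1 over 50 genes, and with eIF2a it was -0.13 and -0.09. The smallest changes were those of ENSG00000196787 (H2AC11-length), whose log2 values were 0.12 for eIF1 and 0.10 for eIF4G1. It stood at 976, 1203 and 1347 CPM with DMSO and 869, 1276 and 1360.0 CPM with i14G1-12 in eIF1. In eIF4G1 it stood at 1822, 1719 and 1731 CPM and then 1609, 1835 and 1591 CPM, so the groups overlapped in both. ENSG00000274997 (H2AC12-length) had 0.43 and 0.12. The other 8 H2A-length genes ran from 0.58 to 0.99 in eIF1 and from 0.62 to 1.27 in eIF4G1.

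**Figure D3:**
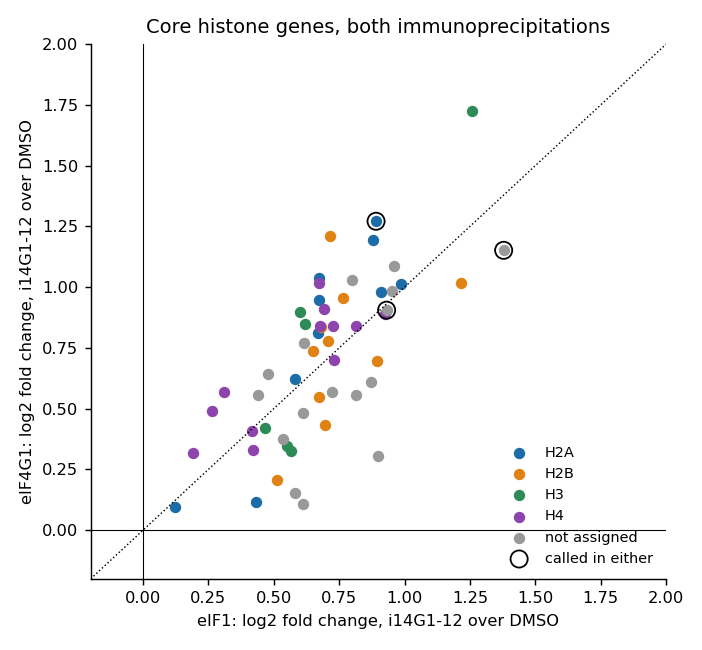
Log2 fold change of i14G1-12 over DMSO in eIF1 (x axis) and in eIF4G1 (y axis) for the 54 core histone genes tested in both, coloured by the class that the counted length gives; rings mark genes called by edgeR in either and the dotted line marks equal values. All points lie above 0 on both axes, with ENSG00000196787 lowest on both (0.12 and 0.10), ENSG00000276410 highest in eIF1 (1.38) and ENSG00000275379 highest in eIF4G1 (1.72).

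In a test of the difference between the eIF1 and eIF4G1 changes, edgeR called 0 of the 56, where 0.0318% of all genes were called. At an unadjusted p under 0.05, 0 of the 56 passed, against 3.15% of all genes, and DESeq2's test called 0, where it called 0.012% of all genes. The summed set differed by 0.00 on the log2 scale with an SE of 0.53, so differences of some size between the factors would not be seen with these libraries. The lowest unadjusted p, 0.103, belonged to the rarest gene, ENSG00000274618 (H4C6-length), with a log2 difference of -1.99 (SE 1.20). In the other direction the lowest, 0.198, was that of ENSG00000277775, with 0.64 (SE 0.49).

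In eIF2a, 50 histone genes were tested, and 45 had a positive and 5 a negative log2 fold change, where 56.5% of all genes were positive. The median was 0.20 against 0.06 over all genes. These values were scaled by TMM, while the ratio of the plain shares was 0.997. Here edgeR called 0 histone genes, with 0% of all genes called; 0 of 50 had an unadjusted p under 0.05, where 1.84% of all genes did, and DESeq2's test called 0 histone genes and 0% of all genes. ENSG00000184270 (H2AC21-length) had the lowest p among the positive values, at 0.48 (SE 0.38), and ENSG00000276903 among the negative ones, at -0.29 (SE 0.36). In eIF3, 50 were tested, 45 positive and 5 negative, where 51.4% of all genes were positive, with a median of 0.38 against 0.02. Again edgeR called 0, where 0.0159% of all genes were called, and DESeq2's test called 0, where it called 0.0203% of all genes. At an unadjusted p under 0.05, 2 of the 50 passed, ENSG00000278588 with 1.67 (SE 0.63) and ENSG00000276410 with 1.76 (SE 0.73), against 1.75% of all genes. Among the negative values ENSG00000196787 (H2AC11-length) had the lowest p, at -0.42 (SE 0.70). The eIF3 median was -0.32 without i14G1-12 1 and 0.97 without i14G1-12 2, so its direction rests on single libraries.

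Averaged over the 4 immunoprecipitations in 1 fit, all 56 had a positive mean log2 fold change, as did 54.2% of the 9426 genes tested, with a median of 0.55 against 0.04 over all genes. By edgeR 4 rose and 0 fell, where 0.541% of all genes were called, and 38 of 56 had an unadjusted p under 0.05, against 10.2% of all genes. DESeq2's test called 28 of the 49 histone genes to which it gave an adjusted p, where it called 7.99% of all genes. The 4 that edgeR called were ENSG00000276410 (1.27, SE 0.29, adjusted p = 0.0200), ENSG00000278588 (0.99, SE 0.23, adjusted p = 0.0200), ENSG00000278677 (0.85, SE 0.20, adjusted p = 0.0277) and ENSG00000184270, H2AC21-length (0.82, SE 0.20, adjusted p = 0.0346). This average uses the libraries of the separate comparisons and adds no new ones.

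How evenly the libraries of a group carried these 4 differed between genes and between factors. Beside the eIF1 values above, ENSG00000276410 stood in eIF4G1 at 139.5, 154 and 226 CPM with DMSO and 638, 179.5 and 185 CPM with i14G1-12, and the groups overlapped in both. Its averaged log2 value ran from 0.99 to 3.18 over the alternatives. ENSG00000278677, an abundant gene of 487 nt not assigned to a class, went from 1656, 1438 and 1439.7 CPM to 2762, 2646 and 2448 CPM in eIF1. In eIF4G1 it went from 1362, 1302 and 1369.5 CPM to 2614, 2765 and 1694 CPM. In eIF3 it stood at 1359.8 and 659 CPM with DMSO and 2658 and 1148 CPM with i14G1-12. Its groups did not overlap in eIF1 or eIF4G1 and overlapped in eIF3. ENSG00000184270 (H2AC21-length) went from 1162, 915 and 1007 CPM to 1691, 1579 and 1972 CPM in eIF1. In eIF4G1 it went from 674, 569 and 592 CPM to 1139, 1177 and 909 CPM, and in eIF2a from 459.6 and 498 CPM to 689 and 539.9 CPM. Its groups were apart in these 3 and overlapped in eIF3. The eIF2a value of 498 CPM is 5 counts in DMSO 2, so the separation in eIF2a is uncertain. ENSG00000278588, of 482 nt and not assigned, went from 156, 217 and 179 CPM to 420.2, 236 and 270.0 CPM in eIF1. In eIF3 it went from 112 and 67.6 CPM to 314 and 263 CPM, where the 67.6 CPM are only 4 counts in DMSO 2. Its groups were apart in eIF1, eIF4G1 and eIF3, but in eIF2a it reached 399 CPM in the library DMSO 2, which has 10033 counts, against 81.5 CPM in DMSO 1.

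For fits that left out 1 library, the share of all genes called is not given here, so the counts show only how the number moved. In the average, the number of histone genes called moved with single libraries. It was 0 without eIF1 i14G1-12 a or without eIF2a DMSO 1, and 1 without eIF2a DMSO 2, eIF2a i14G1-12 1 or eIF3 i14G1-12 1. It was 2 without eIF1 DMSO b, eIF1 DMSO c, eIF4G1 i14G1-12 2, eIF2a i14G1-12 2 or eIF3 DMSO 2. It was 10 without eIF4G1 i14G1-12 3 and 19 without eIF3 i14G1-12 2. Scaled by total counts alone it was 0, with a histone median of 0.37 against -0.09 over all genes.

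Without the compound, histone mRNAs also took a larger share in eIF1 complexes than in the others. With DMSO the set had a mean share of 9.01% with eIF1, 7.36% with eIF4G1, 6.56% with eIF2a and 5.93% with eIF3. The eIF1 libraries, at 8.34% to 9.73%, did not overlap with any other DMSO library, while the other 3 factors overlapped. Set against the mean of the other 3 factors, all 56 genes were higher in eIF1, as were 53.5% of the 9426 genes tested, with a median log2 difference of 0.89 against 0.04 over all genes. By edgeR 22 were higher and 0 lower, where 4.08% of all genes were called. At an unadjusted p under 0.05, 43 of 56 passed, all higher, against 14.6% of all genes. Antibody, tag, batch and any difference between the cells go with the factor here, so a difference between the factors themselves was not tested. These eIF1 DMSO libraries are also the controls of the eIF1 treatment comparison, so the comparisons share libraries.

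By class, 7 of 10 H2A-length, 3 of 10 H2B-length, 3 of 6 H3-length, 7 of 13 H4-length and 2 of 17 unassigned genes were among the 22. ENSG00000277157 (H4C4-length) stood at 3085, 2025 and 2733 CPM in eIF1 with DMSO. It stood at 1232, 1139 and 1123 CPM in eIF4G1, 1060.0 and 1595 CPM in eIF2a, and 1176 and 744 CPM in eIF3. The eIF1 libraries lay above all 7 others, and the log2 difference was 1.70 (SE 0.28, edgeR adjusted p = 3.51e-05). By p, ENSG00000197061 (H4C3-length) came next, with 1.60 (SE 0.29, edgeR adjusted p = 0.000176), at 5646, 3688 and 4886 CPM in eIF1 and 1622 to 2786 CPM in the others. ENSG00000184270 (H2AC21-length) had 1.50 (SE 0.29, edgeR adjusted p = 0.000453), at 915 to 1162 CPM against 321 to 674 CPM. For both, too, every eIF1 library was above every other DMSO library.

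The other called genes, each past the edgeR threshold, spread over the classes. Of the H2A-length genes, ENSG00000276368 (H2AC14-length), ENSG00000278463 (H2AC4-length), ENSG00000277075 (H2AC8-length) and ENSG00000196866 had log2 differences of 1.27, 1.16, 1.14 and 1.07. The H2B-length genes ENSG00000277224 (H2BC7-length), ENSG00000275713 (H2BC9-length) and ENSG00000274290 (H2BC6-length) had 1.42, 1.34 and 1.25. The 3 called H3-length genes were the most abundant of that class, ENSG00000286522 (H3C2-length) with 1.02 and the pair ENSG00000203811 and ENSG00000203852. The H4-length genes ENSG00000275126, ENSG00000278637 (H4C1-length), ENSG00000276966, ENSG00000158406 (H4C8-length) and ENSG00000278705 (H4C2-length) had 1.62, 1.34, 1.20, 1.05 and 1.05. The unassigned ENSG00000276410 had 1.57 (SE 0.39).

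The paired copies gave like values here: ENSG00000288825 and ENSG00000288859 had 1.42 and 1.37, and ENSG00000203811 and ENSG00000203852 had 1.12 and 1.09. The most abundant H4-length genes, ENSG00000270276 and ENSG00000270882, had 0.65 and 0.67 and were not called. H4-length genes of like length therefore lay far apart, since ENSG00000277157 had 1.70. At the low end stood again ENSG00000196787 (H2AC11-length) with 0.01 (SE 0.29) and ENSG00000274997 (H2AC12-length) with 0.18 (SE 0.30). The highest difference of the 56, 1.90 (SE 0.43, edgeR adjusted p = 0.00285), was that of the rare gene ENSG00000197409, at 97.3, 84.6 and 99.2 CPM in eIF1; 1 of the 7 other libraries, eIF2a DMSO 2, lay above these at 299 CPM.

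**Figure D4:**
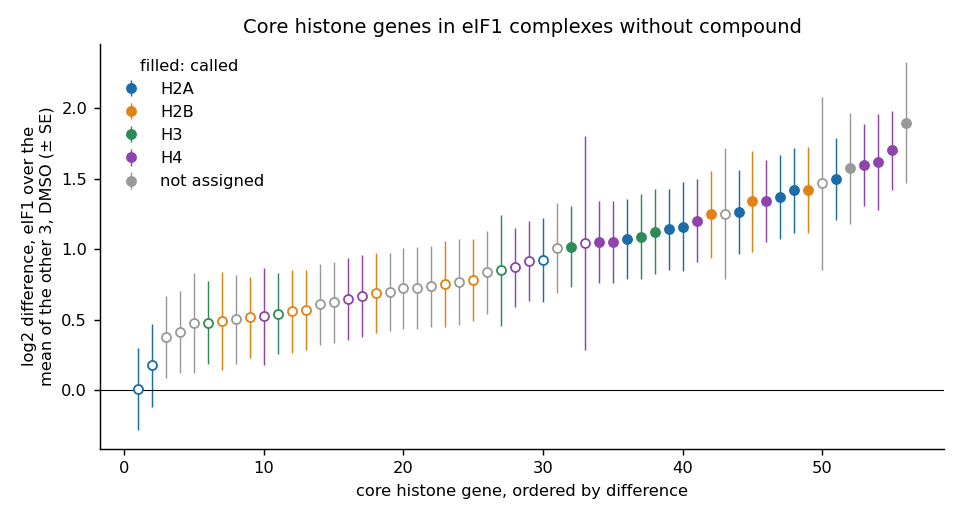
Log2 difference between eIF1 and the mean of eIF4G1, eIF2a and eIF3 in DMSO for the 56 core histone genes, ordered by value, with the standard error of the fit as whiskers, coloured by the class that the counted length gives; filled points are called by edgeR. Values run from 0.01 to 1.90 and the 22 called genes lie in the upper part.

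Without the eIF1 library DMSO a, 4 histone genes were called, all of them among the 22. The share of all genes called is not given here for this fit or for those that left out another library. Without any other single library 15 to 27 were called, of which 15 to 22 were among the 22. In DMSO a, ENSG00000173812 held 14.01% of the counts, against 5.45% and 7.22% in DMSO b and c. Its part in the result was not tested beyond a fit without that gene. That fit again called 22, and its share of all genes called is not given here. Total-count scaling, which lowered the median over all genes to -0.32, called 8 histone genes, all among the 22, and gave a histone median of 0.47. DESeq2's test called 21, of which 18 were among the 22, where it called 4.27% of all genes.

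The other factors gave no calls among the histone genes with DMSO. For eIF4G1 against the mean of the others, edgeR called 0 of 56, where 0.117% of all genes were called, and the median was 0.03 against 0.07 over all genes. At an unadjusted p under 0.05, 1 of 56 passed, ENSG00000276410 with 0.92 (SE 0.41), against 5.18% of all genes. Lowest by p among the negative values was ENSG00000275379, at -0.82 (SE 0.45). For eIF2a it called 0, where 0.053% of all genes were called, with a median of -0.47 against -0.13 over all genes. Here 53 of 56 were lower, where 41.0% of all genes were higher, and 3 of 56 had an unadjusted p under 0.05, against 3.68% of all genes. ENSG00000276966 had the lowest p, at -1.03 (SE 0.39), and among the positive values ENSG00000275379, at 0.62 (SE 0.61). For eIF3 it called 0, where 0.0955% of all genes were called, with a median of -0.44 against 0.03 over all genes. Again 53 of 56 were lower, where 52.8% of all genes were higher, and 8 of 56 had an unadjusted p under 0.05, all lower, against 5.79% of all genes. ENSG00000274290 (H2BC6-length) had the lowest p, at -1.11 (SE 0.42), and among the positive values ENSG00000274618, at 0.40 (SE 1.05). DESeq2's test called 0 histone genes in each, where it called 0.355% of all genes for eIF4G1, 0.03% for eIF2a and 0.454% for eIF3. The eIF1 libraries enter the mean in all 3 comparisons, so these values are not separate from the eIF1 result.

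Among the histone genes, size of change did not follow abundance closely. Spearman's rho between mean CPM and log2 fold change was -0.28 over 56 genes in eIF1 and -0.18 over 54 in eIF4G1, given as a description. In eIF1 the 29 genes at 1000 CPM or more had a median of 0.61 and the 27 below it 0.71; in eIF4G1 the medians were 0.57 for 29 and 0.89 for 25.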

How the data were processed

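The authors deposited raw counts per gene in 4 tables, 1 per immunoprecipitation. Per the submitters' processing notes, cutadapt, Trimmomatic, Bowtie, HISAT2 and featureCounts were used on build hg38; versions, read lengths and the handling of reads that fit several genes are not given in the sources used here. Per the file headers, reads were counted on 1 sequence per gene ID. The numbers in the eIF1 columns are not replicate numbers, so these columns were placed by group only, as a, b and c, with no pairing. Of the gene IDs, 0 matched a symbol by ID, so 8 lists of related genes (90 symbols) and the marker checks were not run.

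Counts were tested with edgeR 4.0.16 in R 4.3.3 (filterByExpr with a minimum of 10, TMM, quasi-likelihood, Benjamini-Hochberg over all genes tested, threshold 0.05), after a check on simulated data. Each treatment comparison used its own libraries; the average, the DMSO contrasts and the difference of changes used 1 fit to 20 libraries. DESeq2 1.42.0, other scalings and filters, each library left out and replicate blocks were alternatives. CPM and shares divide by all gene counts. Replicates differed by more than counting noise, so none was counted as a duplicate. The library with multiples of 3 was kept as deposited, and the length match was made after the data were seen. Same-numbered libraries gave correlations of deviations of 0.01, -0.10 and -0.15 in eIF4G1, -0.02 in eIF2a and 0.56 in eIF3, where there were 2 numbers only, so numbers were not taken as pairs. Genes were named where they were among the 12 most abundant, the 2 most abundant of a class, called in any comparison, or of lowest p in either direction of a comparison; ENSG00000274997 was also named after their values were seen. The histone genes and lists were chosen with earlier results of these data known.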

Additional observations from a re-analysis of the deposited data

How the results depend on the processing

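The number of histone genes called moved with the test, the filter and the scaling. Of the 29 calls of a histone gene in a comparison, 0 changed sign under any alternative. All-gene shares called stand in parentheses, except for fits that left out 1 library, where they are not given. In eIF1 the number called was 2 (0.456%), and 7 with total counts (0.468%), 13 without the filter (0.861%), 5 with a minimum count of 30 (1.6%), 37 with DESeq2's test (6.25%) and 0 in 1 fit to all 20 libraries (0.0424%); leaving out 1 library gave 0 to 4. In eIF4G1 it was 1 (0.347%), and 2 without the filter (0.468%), 4 with a minimum count of 30 (1.46%), 17 with DESeq2's test (9.65%) and 0 in 1 fit to all libraries (0.318%); leaving out 1 library gave 0 to 8. In the average it was 4 (0.541%), and 10 with DESeq2 size factors (0.785%), 0 with total counts (0.308%), 8 with a minimum count of 30 (1.48%) and 28 with DESeq2's test (7.99%); leaving out 1 library gave 0 to 19. In the DMSO contrast of eIF1 it was 22 (4.08%), and 8 with total counts (2.17%); leaving out 1 library gave 4 to 27. The 2 eIF1 calls were not among the 7 with total counts, and 1 of them was among the 37. DESeq2 gave an adjusted p to 2783 genes in eIF1, 1005 in eIF4G1 and 1802 in the average, fewer than edgeR tested. Why DESeq2's test called more histone genes there was not tested.

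With the replicate number as a block, which the labels do not say is a pairing, 2 histone genes were called in eIF4G1 (0.43%), 0 in eIF2a (0%) and 2 in eIF3 (0.381%), where the log2 ratio of the shares within numbers was 0.48, -0.01 and 0.18. The block was not run for contrasts that need eIF1, whose columns carry no such numbers. The log2 ratio of the eIF1 share was 0.49, and 0.65 with TMM and 0.67 with DESeq2 size factors as denominators; that of eIF2a was 0.00, and 0.27 and 0.24. Leaving out 1 library moved that of eIF3 between -0.44 and 0.73. Depth limits eIF2a and eIF3 most: in eIF2a DMSO 2, 3 counts are 299 CPM.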
